A study of Mus musculus with 217 samples.

Results

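The contrast described here sets brain against lung at 0 hr, the baseline of a RiboTag EC study in mice, as a direct pair. Its members are the libraries labelled brain and 0 hr and the libraries labelled lung and 0 hr, after the count files of each library had been summed and libraries with under 3% of reads on genes left out. This kept 9 libraries, 5 of brain and 4 of lung, of the 11 libraries so labelled and of the 98 libraries of the whole series. They came from 26 of its 217 count files. All were from adult C57BL/6J mice of the genotype Cdh5CreERT2/+; Rpl22HA/+ that had been gavaged with tamoxifen (5 mg a dose, 4 doses on alternate days) when 4-6 weeks old. In these mice the Cdh5 promoter, which drives VE-cadherin, switches on a hemagglutinin (HA) tag on the ribosomal protein Rpl22, and RNA on tagged ribosomes was pulled down with an anti-HA antibody from frozen whole tissue, without dissociation of cells. The 0 hr libraries carry the treatment label control, and the later libraries of the series came from mice given 10 mg per kg lipopolysaccharide (LPS). No label ties a library to a mouse, so that p-values measure the spread between these libraries, and pull-downs with a control antibody were not used here as a measure of background.

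The endothelium of the brain forms the blood-brain barrier. Its ECs are sealed by continuous tight junctions, form few caveolae, and move glucose, amino acids, lipids and hormones across by dedicated carriers while efflux pumps return many compounds to the blood. Canonical Wnt signals, mainly Wnt7a, Wnt7b and norrin from neighbouring cells, keep this state. Lung capillaries serve gas exchange instead, through a general capillary cell and a thin, wide cell called the aerocyte, and lung ECs are known for caveolae, for clearing prostaglandins and peptides from the blood, and for homeobox and T-box factors that mark the position of the organ in the embryo.

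Counts on genes ran from 8757674 to 25410277 in the brain libraries and from 3666859 to 43417945 in the lung libraries, which makes the floor of 3 counts worth between 0.0691 and 0.818 CPM, the share of a library's counts that fell on a gene times 1000000. The share of reads on genes was 57.4 to 68.7% in brain and 18.8, 19.2, 28.6 and 56.2% in lung replicates 1 to 4. Lung replicate 4 stood apart, with rank correlations of 0.852 to 0.891 to the other lung libraries, which had 0.947 to 0.960 among themselves, while brain libraries had 0.914 to 0.988 among themselves. Reads without a unique alignment made up 57.3, 59.7, 55.8 and 38.2% in lung replicates 1 to 4 and 26.8 to 32.8% in brain. In both shares lung replicate 4 was nearest to brain. Its rank correlations to brain were 0.658 to 0.757, against 0.601 to 0.668 for the other lung libraries. Neither share overlapped between the tissues, so these measures and tissue cannot be told apart. Gene levels are given as log2 CPM after a prior count of 2, on which 0 counts read as -3.22, and fold changes are brain minus lung on the log2 scale with their standard error (SE).

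Pan-endothelial genes were looked at first, as a check on endothelial content and not on the tissue labels. 1 of 22 members tested was higher in brain, 14 were lower and 7 were not called, with a median log2 fold change of -1.56. Cdh5, the gene whose promoter drives the tag, read 8.23, 8.05, 7.35, 7.72 and 7.80 log2 CPM in brain replicates 1 to 5 and 9.00, 8.35, 9.26 and 11.10 in lung replicates 1 to 4, with no overlap. The summed CPM of these genes was 3697 to 8130.3 in brain and 14356 to 24133 in lung, so endothelial markers were present in every library and took a smaller share of the brain counts. In bulk RNA, fewer cells of a type and less RNA per cell cannot be told apart. Fli1, an ETS factor of blood and endothelium, was the exception, at 1.42 ± 0.45 (adjusted p = 0.02), a call that was lost without brain replicate 2, lung replicate 2 or lung replicate 3 (1.44, 1.35 and 1.12). Rasip1 (-5.08 ± 0.44), Egfl7 (-4.92 ± 0.56), Clec14a (-4.29 ± 0.45) and Cd93 (-3.32 ± 0.38), regulators of vessel lumen, junctions and adhesion, were lower on both scales used below. The pan-endothelial list that holds them sets the second of these scales, so their place on it is not independent of the list. Among those not called were Erg (-0.49), Sox18 (-0.74) and Eng (0.33, which was called at 1.37 without lung replicate 4).

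A direct test over 17001 genes found 5824 genes higher in brain, which is 34.3% of genes tested, and 4237 genes lower in brain, which is 24.9% (edgeR's quasi-likelihood test, Benjamini-Hochberg adjusted p under 0.05). The median log2 fold change of all genes was 0.40. When libraries were scaled to an equal mean of the pan-endothelial genes instead of by TMM, this median rose by 1.61 to 2.02 and the calls became 11277 higher and 1157 lower, so that higher genes made up 90.7% of the calls in place of 57.9%. Medians of gene lists below are therefore followed by their value on the pan-endothelial scale in parentheses, and are to be read against 0.40 on the first scale and 2.02 on the second. Counts of higher and lower members of a list are to be read against 34.3% and 24.9% of all genes. Within library series 2, with 3 brain and 2 lung libraries, 7208 genes were higher and 4749 lower, and within series 1, with 2 of each, 2021 were higher and 829 lower. Without lung replicate 4 the counts were 6981 and 5342.

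**Figure D1:**
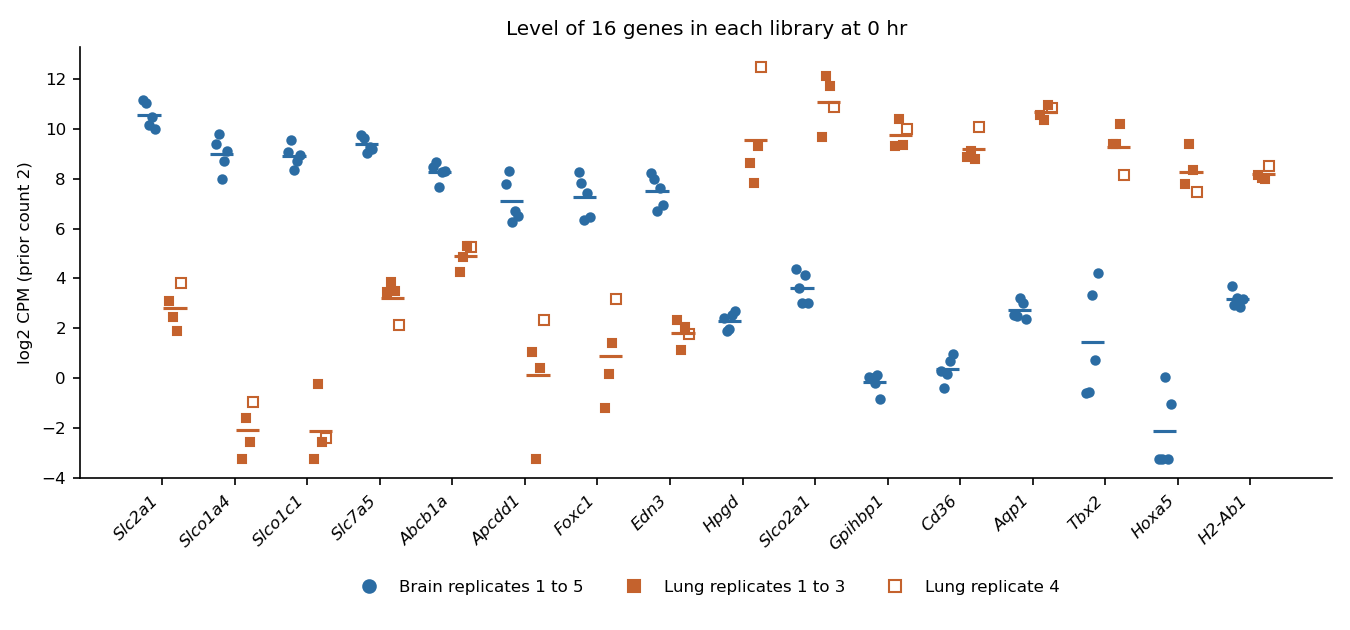
Level of 16 genes in each library at 0 hr, as log2 CPM with a prior count of 2 (y axis), for the 5 brain and 4 lung libraries. Points are libraries and bars the group means. Slc2a1, Slco1a4, Foxc1 and 5 other genes lie above lung in every brain library, Hpgd, Gpihbp1, Hoxa5 and 5 others below it, and lung replicate 4 is drawn as an open square.

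Among genes with a mean of at least 5 log2 CPM, a call and groups that did not overlap, 761 were higher and 1473 lower in brain. At any level, the groups of 17001 genes tested did not overlap for 4901 with brain above and 2934 with lung above. The 761 and 1473 therefore belong to the better expressed genes and are not shares of all genes. Of the 761, the 10 with the largest fold change toward brain included Ptgds, Ptn, Apod, Snap25, Igf2, Camk2a, Kif5a, Fmod and Ndrg4. Ptgds, which makes prostaglandin D and is abundant in meningeal and glial cells, had a log2 fold change of 13.06 ± 1.19 and took 1.88 to 7.59% of all counts in brain. Snap25, a protein of synaptic vesicle fusion, stood at 9.25, 9.89, 10.55, 11.20 and 10.27 log2 CPM in brain and 0.12, 2.62, 0.75 and -2.40 in lung, which is above lung in every brain library. Several of these genes are better known from neurons (Snap25, Camk2a, Kif5a) or from meninges and fibroblasts (Igf2, Fmod, Apod) than from ECs. Leaving out genes on marker lists of other cell types brought in Slc2a1 and Kif1a among others. Slc2a1 is the glucose carrier GLUT1 of the blood-brain barrier.

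Toward lung, the 10 largest differences were Sftpc, Aqp1, Gm23935, Hpgd, Slco2a1, Wfdc2, Gpx3, Il3ra, Emp2 and Pde3a. Sftpc, surfactant protein C of alveolar type 2 cells, had a log2 fold change of -13.67 ± 0.81. Aqp1, a water channel of many endothelia that barrier capillaries make little of, read 2.55, 2.48, 3.20, 3.03 and 2.40 log2 CPM in brain and 10.54, 10.35, 10.93 and 10.81 in lung, a log2 fold change of -7.96 ± 0.39 (adjusted p = 4.0e-07). Il3ra, a receptor chain for interleukin 3, had -6.73 ± 0.64, and Sema3f, a secreted guidance factor that joined when other cell types were left out, had -6.41 ± 0.37. Gm23935, and Gm15564, which also joined, are among 7 features that resemble ribosomal or repeat sequence and together took 19.9, 19.6, 12.3 and 1.28% of the counts of lung replicates 1 to 4, against 0.116 to 0.856% in brain. Taking these 7 features out left 5820 higher and 4232 lower calls.

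The start regions of 6 genes are shown here as DNA, of which 4 belong to barrier carriers and the Wnt pathway and 2 to lung prostaglandin clearance. Slc19a3 (thiamine carrier), Stra6 (retinol receptor) and Tnfrsf19 (a Wnt target) were chosen after their values were seen. They are among the few members of their lists with a motif match, so their matches do not measure how common the motif is. The shares over whole lists are given below the sequences. Each line holds the 250 bases before the transcription start in RefSeq on GRCm38.p6 (mm10), 5′ to 3′ on the strand of the gene. Where a gene had several starts, the start with the most motif matches is shown. Capitals mark the heptamer CTTTGAT or CTTTGAA, read on either strand, which holds the core of TCF/LEF sites.
Slc2a1 (chr4:119108495-119108744, + strand): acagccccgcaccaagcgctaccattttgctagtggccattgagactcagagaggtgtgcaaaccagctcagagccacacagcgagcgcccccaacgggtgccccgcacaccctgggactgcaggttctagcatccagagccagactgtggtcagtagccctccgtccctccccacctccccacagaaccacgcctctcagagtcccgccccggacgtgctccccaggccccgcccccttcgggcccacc
Slc19a3 (chr1:83038449-83038698, - strand): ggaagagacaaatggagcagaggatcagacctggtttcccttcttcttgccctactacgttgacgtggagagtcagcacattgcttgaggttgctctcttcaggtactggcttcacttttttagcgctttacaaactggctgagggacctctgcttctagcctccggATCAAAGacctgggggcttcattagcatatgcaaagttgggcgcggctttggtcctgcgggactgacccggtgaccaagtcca
Stra6 (chr9:58129099-58129348, + strand): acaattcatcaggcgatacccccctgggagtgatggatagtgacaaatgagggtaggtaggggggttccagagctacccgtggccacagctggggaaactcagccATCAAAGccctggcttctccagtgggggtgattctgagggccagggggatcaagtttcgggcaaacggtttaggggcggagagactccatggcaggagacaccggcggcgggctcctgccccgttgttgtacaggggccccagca
Tnfrsf19 (chr14:61037988-61038237, - strand): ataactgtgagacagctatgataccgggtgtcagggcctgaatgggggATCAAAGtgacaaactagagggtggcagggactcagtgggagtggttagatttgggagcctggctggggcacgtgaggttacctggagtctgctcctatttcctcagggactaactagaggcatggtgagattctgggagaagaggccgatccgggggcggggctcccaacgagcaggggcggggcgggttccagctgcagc
Hpgd (chr8:56294302-56294551, + strand): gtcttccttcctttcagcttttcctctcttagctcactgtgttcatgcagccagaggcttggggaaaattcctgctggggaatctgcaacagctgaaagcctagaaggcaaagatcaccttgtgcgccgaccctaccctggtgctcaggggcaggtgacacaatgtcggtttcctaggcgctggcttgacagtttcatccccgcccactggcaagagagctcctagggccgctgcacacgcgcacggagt
Slco2a1 (chr9:103008237-103008486, + strand): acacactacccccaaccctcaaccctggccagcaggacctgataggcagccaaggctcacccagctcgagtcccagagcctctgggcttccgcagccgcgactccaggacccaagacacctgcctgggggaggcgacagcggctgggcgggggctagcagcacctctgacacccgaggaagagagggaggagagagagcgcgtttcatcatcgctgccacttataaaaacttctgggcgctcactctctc
One match lay in Slc19a3, from base -83 to -77, one in Stra6, from -145 to -139, and one in Tnfrsf19, from -202 to -196, all on the opposite strand, and none in the other three. Over windows of the 250 bases before the start, 2457 of 32851 windows (7.48%) of all RefSeq genes held the heptamer. It was held by 7 of 40 windows (17.5%) of the 23 barrier carriers, out of 31, that had a window. The Wnt list had 2 of 24 windows (8.33%), from 16 of its 25 members, and general capillary markers of lung 2 of 12 windows (16.7%), from 9 of 16. Forkhead (TGTTTAC) and ETS (CCGGAAG) letters were searched as well. Each was held by 1 of 40 windows of barrier carriers (2.5%), against 3.17% and 6.91% of all windows. A match of letters is a description and not a site.

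Barrier carriers and receptors were higher in brain almost throughout. 26 of 31 members tested were higher in brain, 0 were lower and 5 were not called, with a median of 3.84 on the log2 scale (5.47 on the pan-endothelial scale), against 34.3% higher among all genes. In 4 of them the lung libraries held under 10 counts each, so that they entered the test through their brain level. Slc2a1 stood at 11.16, 11.03, 10.13, 10.48 and 10.00 log2 CPM in brain replicates 1 to 5 and 3.11, 2.46, 1.89 and 3.82 in lung replicates 1 to 4. Every brain library was above every lung library, with a log2 fold change of 7.84 ± 0.43 (adjusted p = 5.9e-07). Slc2a1 lies at chr4:119108711-119137983 (+ strand) on mm10 in the GENCODE annotation used here. Exons of a gene on the other strand cover 105 of its bases, and whether counting used strand is not given in the sources used here, so that such reads cannot be told apart. The overlap is larger for Rasip1 (720 bases), Pde3a (741), Hoxa3 (1529), Hoxa7 (586), Tbx18 (970), Psmb8 (498) and others named below.

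The organic anion and thyroid hormone carriers showed the largest differences. Slc22a8, the organic anion carrier OAT3 at chr19:8591254-8611835 (+ strand) on mm10, had 37378 counts in the 5 brain libraries and 0 in the 4 lung libraries, which makes it at least 6811-fold higher in brain against the floor of 3 counts over the lung group. Slco1a4, a carrier of bile salts and drugs, read 9.39, 9.80, 7.97, 8.72 and 9.13 log2 CPM in brain and -3.22, -1.61, -2.53 and -0.95 in lung. Slco1c1, which carries thyroxine, read 9.05, 9.54, 8.35, 8.71 and 8.94 in brain and -3.22, -0.24, -2.53 and -2.40 in lung. The groups of both lay far apart, and lung held 10 and 13 counts in all. Slc16a4, a monocarboxylate carrier, had 4012 counts in brain and 1 in lung, a ratio of CPM of 2193 (95% exact interval 393 to 86642, which covers counting error only, as do the intervals below).

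Slc7a5, the large neutral amino acid carrier, and Mfsd2a, which takes up lysophospholipids and restrains transcytosis, are named here after their values were seen. Slc7a5 read 9.73, 9.64, 9.04, 9.28 and 9.19 log2 CPM in brain and 3.45, 3.84, 3.48 and 2.15 in lung (6.07 ± 0.46, adjusted p = 3.8e-06), and Mfsd2a had a log2 fold change of 5.35 ± 0.58. The partner chain of Slc7a5, Slc3a2, was not called, at 0.83 ± 0.59 (adjusted p = 0.24), but was higher at 1.59 without lung replicate 4 (adjusted p = 7.9e-04). Tfrc, the transferrin receptor, had 1.05 ± 0.58 and Insr, the insulin receptor, -0.56 ± 0.26, neither of which passed the test, while without lung replicate 4 Insr was lower at -0.94 (adjusted p = 0.0026). The other members that were not called were Slc9a3r2 (-0.18) and Slc38a5 (1.07). Within library series 2 alone, 27 of 31 members were higher and 1, Insr, was lower.

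Of efflux pumps, 41.7% were higher and 16.7% lower, against 34.3% and 24.9% among all genes. 5 of 12 members tested were higher in brain, 2 were lower and 5 were not called, with a median of 0.69 (2.37 on the pan-endothelial scale). Abcb1a, the main P-glycoprotein gene of mouse brain capillaries, stood at 8.46, 8.66, 7.65, 8.25 and 8.31 log2 CPM in brain and 4.26, 4.85, 5.30 and 5.25 in lung. No brain library reached down to lung, and the log2 fold change was 3.33 ± 0.34 (adjusted p = 2.3e-05), with 553 of its bases covered by exons on the other strand. Its relative Abcb1b had 2.43 ± 0.98 and was not called (adjusted p = 0.052), but was called at 2.98 without brain replicate 2 and at 3.90 without lung replicate 4, and reads may be shared between these near copies. Abcc4 and Abca2 were higher in brain by 4.65 and 5.60, while Abcc6, with 766 counts in brain and 0 in lung, was at least 139.6-fold higher. Abcc3 and Abcg1, which exports sterols, were lower, with log2 fold changes of -3.79 and -1.83.

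Most Wnt pathway genes of brain vessels were higher in brain. 15 of 24 members tested were higher in brain, 3 were lower and 6 were not called, with a median of 1.36 (3.01). Fzd6 was not tested. Among transcriptional targets and feedback inhibitors, Apcdd1 read 7.78, 8.30, 6.26, 6.72 and 6.48 log2 CPM in brain and 1.05, -3.22, 0.40 and 2.33 in lung, a log2 fold change of 6.62 ± 0.70 (adjusted p = 3.0e-05). Lef1, the DNA-binding partner of beta-catenin in brain ECs, had 5.22 ± 0.55, and Notum, a secreted inhibitor that strips the lipid from Wnt ligands, had 4.70 ± 0.53. Both overlap exons on the other strand, by 1208 and 918 bases. Tnfrsf19, shown above, read 7.17, 7.45, 7.07, 7.13 and 7.16 in brain and 2.66, 2.74, 3.27 and 2.35 in lung. Of the ligands, which neighbouring cells make, Wnt7b had 2.47 ± 0.82 and Ndp, which encodes norrin, 6.15 ± 0.82 with 5 counts in lung, while Wnt7a was not called (0.89 ± 0.54, adjusted p = 0.17). The call of Wnt7b was lost without lung replicate 2 or 3 (1.74 and 1.92), and Wnt7a was called at 1.57 without lung replicate 1.

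Receptors and coreceptors of the same pathway differed in direction on the TMM scale. Adgra2 and Reck, which together receive Wnt7 signals, were higher in brain by 1.68 and 2.34, and Tspan12, which joins the norrin receptor, by 1.92. Lrp6, a Wnt coreceptor, was not called (-0.35), but was lower at -0.59 without lung replicate 1 and higher at 1.35 on the pan-endothelial scale. The 3 members lower in brain were of several roles. Fzd4, the norrin receptor, had a log2 fold change of -1.47, Lrp5, its coreceptor, -2.55, and Nkd1, an inhibitor, -2.13, which became 0.32, -0.96 and -0.57 on the pan-endothelial scale, so that Fzd4 changed sign. Axin2, a general Wnt target, had 0.23 ± 0.32 (adjusted p = 0.54) and was not called. Tcf7l2, a partner of beta-catenin, was not called either (-0.56), but was lower without lung replicate 4 (adjusted p = 9.9e-04).

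**Figure D2:**
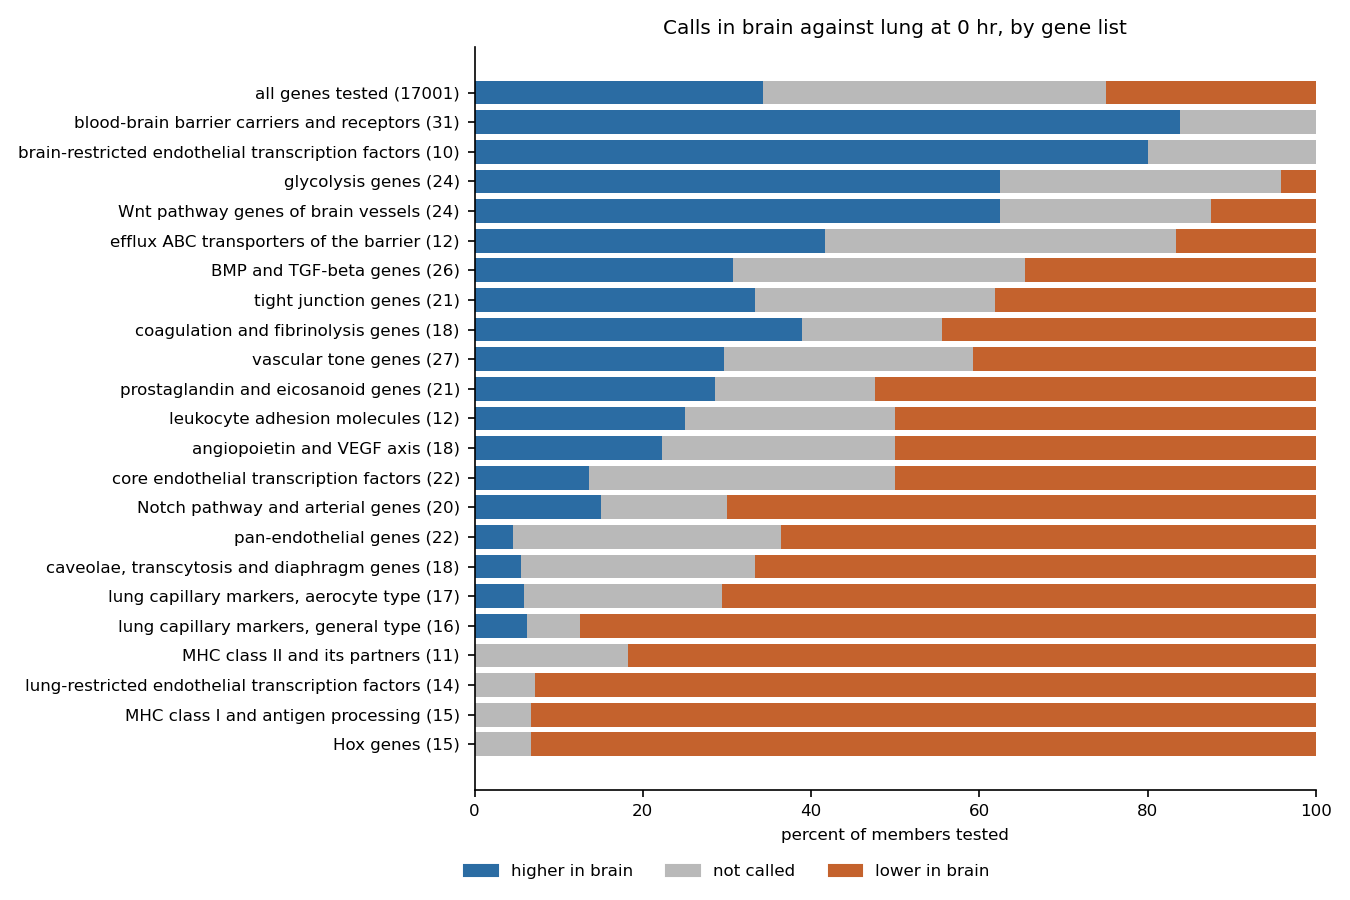
Share of each gene list's tested members that were higher in brain, not called or lower in brain at 0 hr (x axis, percent of members tested; edgeR, adjusted p under 0.05). The number tested follows each name, and the row of all genes tested shows 34.3% higher and 24.9% lower. Barrier carriers are near the top, and lung-restricted factors, MHC class I genes and Hox genes are at the bottom.

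Transcription factors described for brain endothelium were higher in brain. 8 of 10 members tested were higher in brain, 0 were lower and 2 were not called, with a median of 4.49 (6.02). In 3 of the 10, each library of the lower group held under 10 counts, so that they entered the test through the other group. Foxc1, a forkhead factor of brain vessels and meninges, read 8.28, 7.84, 6.33, 7.42 and 6.47 log2 CPM in brain and -1.20, 0.19, 1.43 and 3.19 in lung and had 5.81 ± 0.68 (adjusted p = 6.0e-05). Foxl2 had 2924 counts in brain and 0 in lung, at least 533-fold higher, and Nkx2-2, a factor also known from oligodendrocytes, 400 and 0, at least 72.9-fold higher. Ppard (-0.19, called at -0.66 without lung replicate 4) and Nr4a1 (-0.56) were not called, and Zfp551 was not tested.

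Core endothelial factors differed less and mostly toward lung. 3 of 22 members tested were higher in brain, 11 were lower and 8 were not called, with a median of -1.20 that turned to 0.48 on the pan-endothelial scale. Klf2, the flow-induced factor, stood at 8.37, 8.56, 8.16, 8.16 and 7.22 log2 CPM in brain and 10.47, 12.18, 12.64 and 11.75 in lung, with a log2 fold change of -3.76 ± 0.51 (adjusted p = 1.4e-04). Meox2 had -4.77 ± 0.80, Gata2 -3.51 ± 0.44 and Bcl6b -3.45 ± 0.41. Sox17, an arterial factor of the Wnt and Notch pathways, was higher in brain by 1.06 with 804 bases covered on the other strand, and Heyl, a Notch target also made by mural cells, by 1.66. The call of Sox17 was lost without brain replicates 2, 4 or 5 or lung replicates 2 or 3, at values of 0.89 to 1.04. Mecom (0.24) and Tcf15 (0.53) were not called.

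Lung-restricted and positional factors were lower in brain. Of the factors described for lung endothelium, 13 of 14 tested were lower in brain and none was higher, with a median of -4.25 (-2.52), against 24.9% lower among all genes. Tbx2, a T-box repressor at chr11:85832551-85841948 (+ strand), read -0.57, -0.56, 3.36, 0.75 and 4.23 log2 CPM in brain and 9.40, 9.37, 10.17 and 8.15 in lung. Every brain library was below every lung library although brain replicates 3 and 5 were well above the other brain libraries, and the log2 fold change was -7.76 ± 0.95 (adjusted p = 7.5e-05). Tbx5 had 2 counts in brain and 1832 in lung, a ratio of 1676 (95% exact interval 463 to 13848) in favour of lung. Foxm1, a factor of dividing cells, was not called (-0.33 ± 0.48, adjusted p = 0.57), and Nkx2-3 was not tested. Within library series 2 alone, 13 of 14 were lower. In 2 of the 14, each library of the lower group held under 10 counts.

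Hox genes overlap with this list, which holds 5 of those tested. Of 39 Hox genes, 15 were tested, 14 were lower in brain and none was higher, with a median of -6.25 (-4.70). In 6 of them the brain libraries held under 10 counts each. Hoxa5, a factor needed for lung development, read -3.22, -3.22, 0.045, -3.22 and -1.04 log2 CPM in brain and 7.79, 9.39, 8.35 and 7.46 in lung, with 37 counts in brain in all. Hoxb4 had a log2 fold change of -9.75 ± 0.77, Hoxa7 -9.38 ± 0.58 and Hoxa3 -7.41 ± 0.55, and Hoxc4 was not called (-0.19 ± 0.84, adjusted p = 0.86). T-box genes had 4 higher and 4 lower of 11 tested (36.4% each), and forkhead genes 32.1% higher and 28.6% lower, against 34.3% and 24.9% among all genes. Tbx18 (5.12) and Tbx15 (6.10), which mark mural and meningeal cells, and Tbr1 and Eomes, which are known from neurons, were those higher in brain. Forkhead genes had 9 higher, among them Foxc1, Foxl2 and Foxd1 (10.97), and 8 lower of 28, among them Foxf1 (-3.62), an endothelial and mesenchymal factor of the lung, and the epithelial Foxa1 and Foxa2.

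Markers of both lung capillary types were lower in brain. For general capillaries, 1 of 16 members tested was higher in brain, 14 were lower and 1 was not called, with a median of -2.62 (-1.09). Gpihbp1 (chr15:75596628-75599481 (+ strand)), which holds lipoprotein lipase on the capillary wall, read 0.07, 0.0086, -0.17, 0.12 and -0.84 log2 CPM in brain and 9.31, 10.38, 9.36 and 10.00 in lung. It had 84 counts in all brain libraries together, and its log2 fold change was -10.15 ± 0.47 (adjusted p = 4.0e-07). Lyve1 had -5.86 ± 0.91, and Glp1r 3 counts in brain and 265 in lung, a ratio of 162 (95% exact interval 54.7 to 789). Cxcl12, a chemokine that holds CXCR4-bearing cells, was the exception. It read 9.92, 10.25, 8.50, 8.95 and 9.29 in brain and 8.34, 8.32, 8.56 and 9.09 in lung, with overlap between the groups and a log2 fold change of 0.87 ± 0.33 (adjusted p = 0.039). This call was lost when any library other than brain replicate 3 or lung replicate 3 was left out, at values of 0.68 to 0.91.

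For aerocytes, 1 of 17 members tested was higher in brain, 12 were lower and 4 were not called, with a median of -1.74 (-0.34). Prx, known as periaxin of myelin and of lung capillaries, stood at 1.51, 2.07, 0.65, 0.21 and 0.24 log2 CPM in brain and 9.16, 8.78, 9.53 and 10.54 in lung, and Cyp4b1, a P450 enzyme, had a log2 fold change of -8.24 ± 0.70. Emp2, which is shared with alveolar type 1 cells, had -6.60 ± 0.87. Tmeff2 was higher in brain by 2.07. Ednrb (-1.20, adjusted p = 0.15) and Kitl (-0.35) were not called, and Clec4e was not tested. Igfbp7 was not called at 2.35, but was higher at 3.88 without lung replicate 4, and Sirpa, at -1.14, was lower at -1.57 without it.

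Genes of caveolae, transcytosis and diaphragms were lower in brain on the TMM scale. 1 of 18 members tested was higher in brain, 12 were lower and 5 were not called, and the median of -1.51 turned to 0.20 on the pan-endothelial scale, with 6 higher and 7 lower. Cd36, a fatty acid translocase, read 0.31, -0.39, 0.19, 0.68 and 0.98 log2 CPM in brain and 8.86, 9.10, 8.77 and 10.06 in lung, and kept its direction on that scale (-8.95 and -7.32). Lpl had -5.43 ± 0.55 and Ehd4, which shapes caveolar necks and endosomes, -5.37 ± 0.45. The coat genes Cav2 (-0.14) and Cavin3 (1.33) were not called, although Cavin3 was higher at 2.03 without lung replicate 4. Vldlr, a lipoprotein receptor, was the 1 member higher in brain, at 1.61 ± 0.37. Among fatty acid genes, 9 were higher and 9 lower of 25 (36% each), against 34.3% and 24.9% among all genes. Mfsd2a, Cpt1c, Acsl3 and Vegfb led toward brain and Gpihbp1, Cd36, Lpl and Fabp4 (-5.15 ± 0.46) toward lung.

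Genes for uptake and breakdown of prostaglandins were higher in lung, and the prostaglandin D synthase Ptgds was higher in brain. 6 of 21 members tested were higher in brain, 11 were lower and 4 were not called, with a median of -1.54 (-0.079), or -0.92 without lung replicate 1. Hpgd, the enzyme that inactivates prostaglandins, stood at 2.43, 1.89, 1.98, 2.54 and 2.69 log2 CPM in brain and 8.61, 7.84, 9.32 and 12.49 in lung (-7.78 ± 1.03, adjusted p = 1.3e-04). Slco2a1, the prostaglandin transporter that brings them to Hpgd, stood at 4.39, 3.62, 3.00, 4.15 and 3.01 in brain and 9.65, 12.11, 11.72 and 10.87 in lung (-7.54 ± 0.65, adjusted p = 8.4e-06). No brain library of either gene reached a lung library. Ptgs1, the constitutive cyclooxygenase, had -4.37 ± 0.33 and Alox5ap, a leukotriene cofactor, -3.62 ± 0.35. Pla2g4a, which releases arachidonic acid, was higher in brain by 3.46. Ptgs2 was not called (0.48 ± 0.42, adjusted p = 0.35).

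Vascular tone genes showed 8 higher and 11 lower of 27 tested (29.6% and 40.7%), against 34.3% and 24.9% among all genes. Their median of -1.02 turned to 0.69 on the pan-endothelial scale and was -0.56 without lung replicate 4. Edn3, endothelin 3, read 8.24, 7.98, 6.72, 7.64 and 6.96 log2 CPM in brain and 2.33, 1.12, 2.05 and 1.79 in lung, and Adm, adrenomedullin, had 3.02 ± 0.38. The angiotensin receptors Agtr1b and Agtr2 had 160 and 75 counts in brain and 0 in lung, at least 29.2-fold and 13.7-fold higher. Toward lung, Apln, the aerocyte ligand apelin, had -4.93 ± 0.40, Ace, the converting enzyme of angiotensin, -3.91 ± 0.45, and Ece1, that of endothelin, -3.22 ± 0.37. Nos3, the endothelial nitric oxide synthase, was not called (0.032 ± 0.33, adjusted p = 0.94).

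Antigen presentation was lower in brain. Of MHC class I and processing genes, 14 of 15 tested were lower and none was higher, with a median of -2.72 (-0.95). Tap1, a chain of the peptide pump, stood at 4.70, 4.12, 3.67, 4.25 and 4.29 log2 CPM in brain and 8.24, 8.08, 8.60 and 7.20 in lung (-3.88 ± 0.35, adjusted p = 1.0e-05), and Psmb8, a subunit of the immunoproteasome, had -3.55 ± 0.38. B2m, the common light chain, was not called (1.17 ± 0.56, adjusted p = 0.095), but was higher in brain at 1.84 without lung replicate 4. Of class II genes and partners, 9 of 11 were lower, with a median of -3.44 (-1.76). H2-Ab1 read 3.70, 2.95, 3.23, 2.85 and 3.20 in brain and 8.14, 8.04, 7.98 and 8.50 in lung, and the class II master regulator Ciita had 16 counts in brain and 165 in lung. Class II genes are also made by macrophages and B cells, whose markers are given below.

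Of tight junction genes, 7 of 21 members tested were higher in brain, 8 were lower and 6 were not called, against 34.3% higher and 24.9% lower among all genes, with a median of 0.48 (2.09), which lay between 0.21 (without lung replicate 4) and 0.49 when 1 library was left out. Cldn5, the main claudin of ECs, stood at 9.65, 10.48, 9.41, 9.79 and 9.45 log2 CPM in brain and 12.15, 12.67, 12.34 and 11.52 in lung. Its log2 fold change of -2.42 ± 0.41 (adjusted p = 5.8e-04) became -0.97 on the pan-endothelial scale, which was not called (adjusted p = 0.068). Lsr, angulin 1 of tricellular junctions in the barrier, was higher in brain by 2.16 and Marveld2, tricellulin, by 1.84, with 971 bases of Lsr covered on the other strand. Cldn11, best known from myelin and the meningeal barrier, had 7.59 ± 0.47. Cldn3 (-6.44), Tjp3 and F11r (-3.36), which epithelia also make, were lower. Tjp1, the scaffold ZO-1, was not called (0.48), and was called at 0.95 without lung replicate 4.

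Leukocyte adhesion molecules were higher in brain for 3 and lower for 6 of 12 tested, with a median of -1.05 that turned to 0.56 on the pan-endothelial scale. Ackr1, the chemokine-binding receptor of venules, read 3.97, 5.28, 5.84, 5.86 and 5.69 log2 CPM in brain and 0.12, -0.12, -1.57 and 1.11 in lung (5.50 ± 0.71, adjusted p = 1.1e-04). Alcam and Jam2, which leukocytes use to cross, were higher in brain by 3.01 and 1.51. Selp, P-selectin, had a log2 fold change of -2.85 ± 0.69 (adjusted p = 0.0049) at low levels, with 40 counts in brain and 186 in lung and 624 bases covered on the other strand. Pecam1 stood at 8.11, 8.68, 7.37, 7.93 and 7.75 in brain and 9.98, 10.61, 10.72 and 11.47 in lung, and Podxl and Esam had -2.48 ± 0.44 and -2.25 ± 0.30. Vcam1 (0.091 ± 0.30) and Icam2 (-0.79 ± 0.75) were not called. Of 21 chemokines tested, 3 were higher, among them Ccl27a (2.83) and Ccl28, with 81 counts in brain and 0 in lung, and 9 were lower, led by Cxcl15, which alveolar epithelium makes.

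Most Notch pathway and arterial genes were lower in brain. 3 of 20 members tested were higher in brain, 14 were lower and 3 were not called, with a median of -1.94 (-0.32). Hey1, a Notch target, had -3.35 ± 0.29, and Gja5, connexin 40 of arteries, stood at 4.09, 4.63, 2.92, 3.35 and 2.47 log2 CPM in brain and 8.29, 8.77, 8.31 and 7.15 in lung. Dll1 (-5.24 ± 0.40), with 867 bases covered on the other strand, and Ephb4 (-3.91 ± 0.47), a venous receptor, were lower as well. Alpl, an alkaline phosphatase of brain arterioles and capillaries, read 6.95, 6.86, 6.19, 6.98 and 6.78 in brain and 2.33, -0.01, -0.06 and 1.49 in lung and was far above lung (6.02 ± 0.48, adjusted p = 5.0e-06).

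In the angiopoietin and VEGF axis, 4 genes were higher and 9 lower of 18, with a median of -1.24 that turned to 0.44 on the pan-endothelial scale. Esm1, an endothelial tip cell gene, had -4.25 ± 0.60, Nrp1, a VEGF coreceptor, -3.31 ± 0.36 and Aplnr -3.10 ± 0.40, while Vegfb was higher in brain by 2.91. Angpt2 was not called (-0.52), but was lower at -0.94 without lung replicate 4. Of BMP and TGF-beta genes, 8 were higher and 9 lower of 26 (30.8% and 34.6%), against 34.3% and 24.9% among all genes. Acvrl1 and Bmpr2, receptors in which mutations cause lung vascular disease, had log2 fold changes of -2.80 and -2.35, and Bmpr1a and Tgfbr2 3.03 and 2.17. 

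Coagulation and fibrinolysis genes included 7 higher and 8 lower of 18 tested (38.9% and 44.4%), against 34.3% and 24.9% among all genes. Their median of -0.51 lay between -0.88 and -0.20 when 1 library was left out. It turned to 1.02 on the pan-endothelial scale, where 8 were higher and 3 lower. Thbd, thrombomodulin, which turns thrombin toward protein C, read 9.79, 9.51, 8.25, 9.28 and 7.88 log2 CPM in brain and 9.56, 10.18, 10.96 and 12.05 in lung (-1.84 ± 0.51, adjusted p = 0.01), with overlap and a value of -0.086 on the pan-endothelial scale. Plaur, the urokinase receptor, had -4.54 ± 0.33. F3, tissue factor, which astrocytes make in quantity, was higher in brain by 4.71. Serpind1, heparin cofactor II, had 5139 counts in brain and 1 in lung, a ratio of 2809 (95% exact interval 504 to 110974). Vwf, which platelets and ECs share, was not called (-1.58 ± 0.63, adjusted p = 0.052), but was lower in brain without lung replicates 1, 3 or 4 (-1.81, -1.96 and -0.79).

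Glycolysis genes were higher or not called in brain, with 1 exception. 15 of 24 members tested were higher in brain, 1 was lower and 8 were not called, with a median of 1.66 (3.23). Eno2 (7.92), the enolase of neurons, Aldoc (6.70), the aldolase of astrocytes, and Ldhb (3.74) led, and Pfkfb3, the glycolytic driver of ECs, was the 1 lower gene (-1.78 ± 0.26, adjusted p = 2.3e-04), with -0.13 on the pan-endothelial scale. The respiratory chain had 31 higher and 17 lower of 81 (38.3% and 21.0%), near the 34.3% and 24.9% of all genes. Ribosomal protein genes had 12 higher and 31 lower of 80 (15% and 38.8%). Their median of -0.31 turned to 1.26 on the pan-endothelial scale and lay between -0.49 and -0.12 when 1 library was left out. Interferon-stimulated genes had 3 members higher, 2 lower and 19 not called of 24, with a median of -0.027 (1.64), or -0.19 to 0.065 when 1 library was left out. Of immediate early genes, which handling of tissue can induce, 9 were lower in brain and 2 higher of 18, with a median of -1.09, while on the pan-endothelial scale 2 were lower and 7 higher with a median of 0.56. Among those lower on the TMM scale was Junb, at -2.51 ± 0.41.

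**Figure D3:**
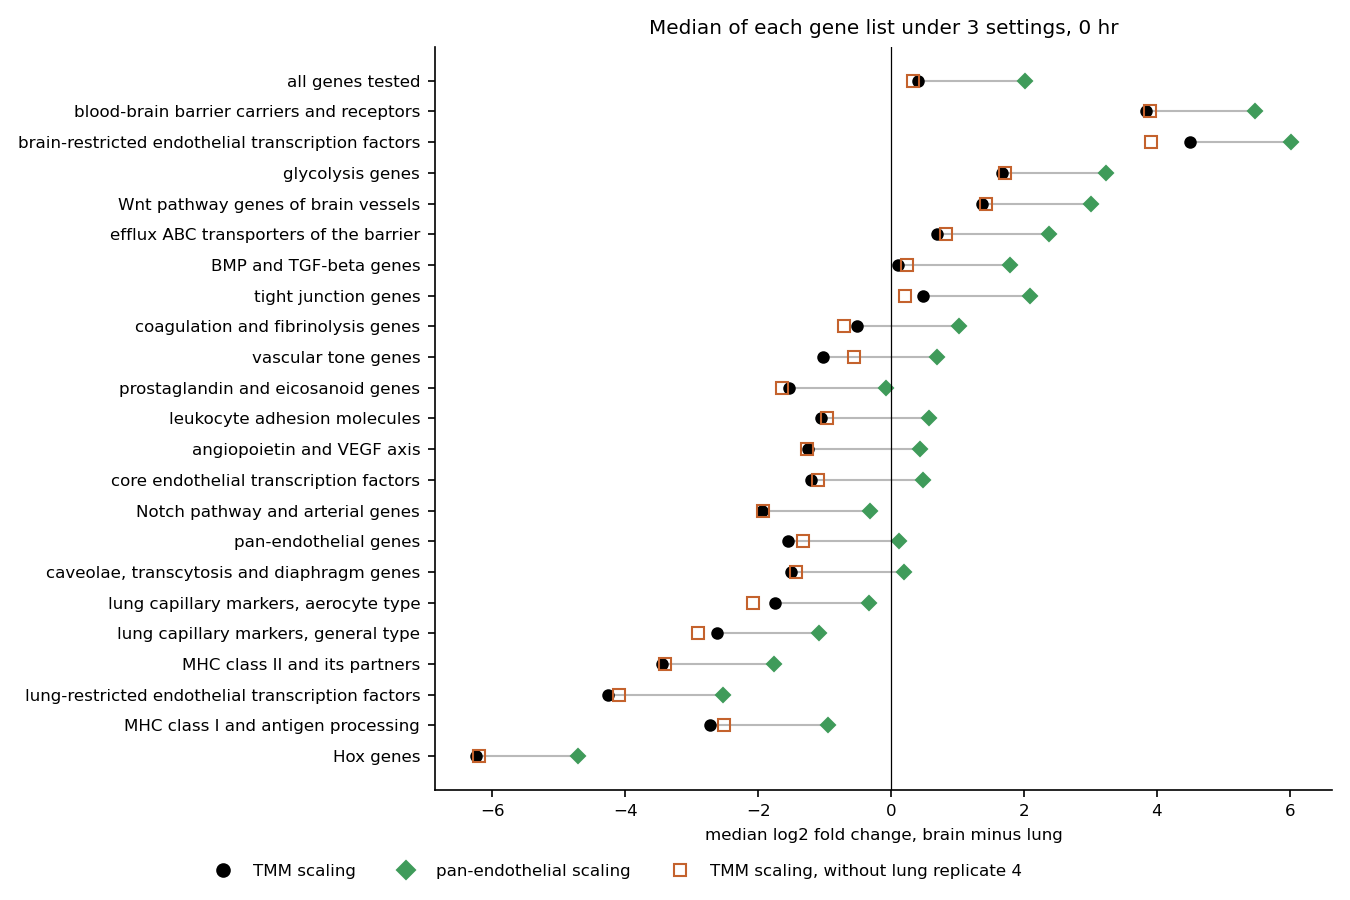
Median log2 fold change (brain minus lung) of each gene list at 0 hr (x axis) with TMM scaling, with scaling to the pan-endothelial genes, and without lung replicate 4. The median of all genes is drawn as a row of its own and moves from 0.40 to 2.02 with the pan-endothelial scaling, while Hox genes and lung-restricted factors stay below 0 under each of the 3 settings and caveolar genes do not.

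Markers of the cells that surround the vessels moved with both tissues, so their levels stand beside every list above. Of neuron markers, 28 of 29 tested were higher in brain, with a summed level of 3936 to 15099 CPM in brain and 339 to 521 in lung. Grin1, a subunit of the NMDA receptor, had 13857 counts in brain and 0 in lung, at least 2525-fold higher, with 1307 bases covered on the other strand. Astrocyte markers (14 of 16 higher) summed to 6735 to 11781 CPM in brain and 348 to 1462 in lung, oligodendrocyte markers (16 of 17) to 2656 to 8019 and 74.3 to 169. Fibroblast and meningeal markers (11 of 14) reached 2579 to 11107 CPM in brain against 367 to 605 in lung. Gfap, the intermediate filament of astrocytes, stood at 4.92, 5.51, 9.57, 6.84 and 9.59 log2 CPM in brain and -3.22, 0.79, -0.74 and -3.22 in lung. Of the neuron and oligodendrocyte markers, 7 and 7 had under 10 counts in each lung library, so that they entered the test through their brain level. The part of these cells in the differences of the barrier, Wnt and forkhead genes was not tested.

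On the lung side, alveolar type 2 cell markers were lower in brain for 13 of 14 tested, with a summed level of 2821 to 11306 CPM in lung and 133 to 200.2 in brain. Lung replicate 4 had the lowest sum of the lung libraries. Sftpd, a surfactant protein, had 0 counts in brain and 34863 in lung, at least 21259.8-fold lower in brain. Alveolar type 1 markers (10 of 12 lower) summed to 4383 to 12192 CPM in lung and 2577 to 4419 in brain, so that their sums overlapped. Airway markers (14 of 15 lower) summed to 2002 to 5465 CPM in lung and 154 to 278 in brain. Macrophage markers were lower for 10 of 13 (679 to 1879 CPM in lung, 42.1 to 122 in brain) and B cell markers for 9 of 10 (94 to 408 and 11.9 to 22.6). Under 10 counts in each library of the lower group were held by 6 type 2, 5 airway, 4 macrophage and 3 B cell markers. These markers entered the test through the other group. Mural cell markers, with 2 higher and 4 lower of 16, lay at 1781 to 4701 CPM in brain and 295 to 655 in lung, and lymphatic markers had 3 lower of 7. The part of these cells in the class II, Hox and T-box results was not tested.

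**Figure D4:**
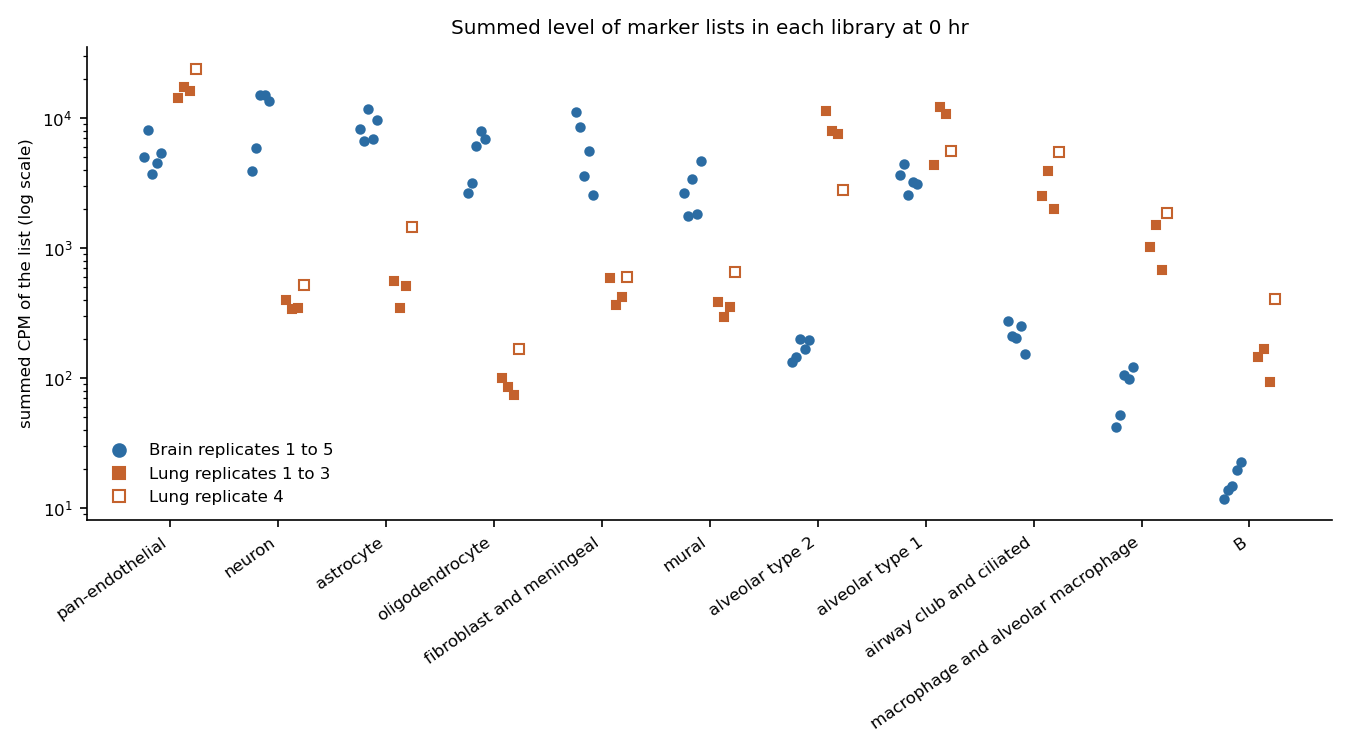
Summed CPM of marker lists in each library at 0 hr (y axis, log scale) for pan-endothelial genes and for cells of brain and lung tissue. Circles are the 5 brain libraries and squares the 4 lung libraries, with lung replicate 4 open. Pan-endothelial sums are higher in every lung library, neuron sums are at least 3936 CPM in brain and at most 521 CPM in lung, and alveolar type 2 sums are at least 2821 CPM in lung and at most 200.2 CPM in brain.

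The contrast was repeated in libraries that the 0 hr test had not used, 23 of brain and 20 of lung at 6 to 168 hr after LPS, averaged over 5 time points. Of 21018 genes tested, 9824 (46.7%) were higher in brain and 5570 (26.5%) lower. Of genes called at 0 hr and tested in both, 5604 of 5824 higher genes (96.2%) were higher again, which is 69.0% of the 8116 genes tested in both that were higher after LPS, and 3740 of 4237 lower genes (88.3%) were lower again, which is 79.6% of 4700. Calls of opposite direction numbered 4 for genes higher at 0 hr and 16 for genes lower at 0 hr. All animals of this second contrast had received LPS, so it holds the tissue difference and any difference in response together.

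Barrier carriers had 29 higher and 1 lower, Insr (-0.51), of 31 after LPS, with a median of 3.33. Slc2a1 was 6.09 ± 0.33 and Slco1c1 9.03 ± 0.74 on the log2 scale. Lung-restricted factors had 12 lower of 14, with Tbx2 at -6.04 and Hoxa5 at -8.77, and Hpgd and Slco2a1 were -5.94 and -6.82. Selp, which endotoxin is known to induce, at -2.85 at 0 hr, was 0.89 ± 0.45 after LPS (adjusted p = 0.075), and Cxcl12, at 0.87 at 0 hr, was -0.23 ± 0.42 (adjusted p = 0.64). The change of either difference between the settings was not tested.

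**Figure D5:**
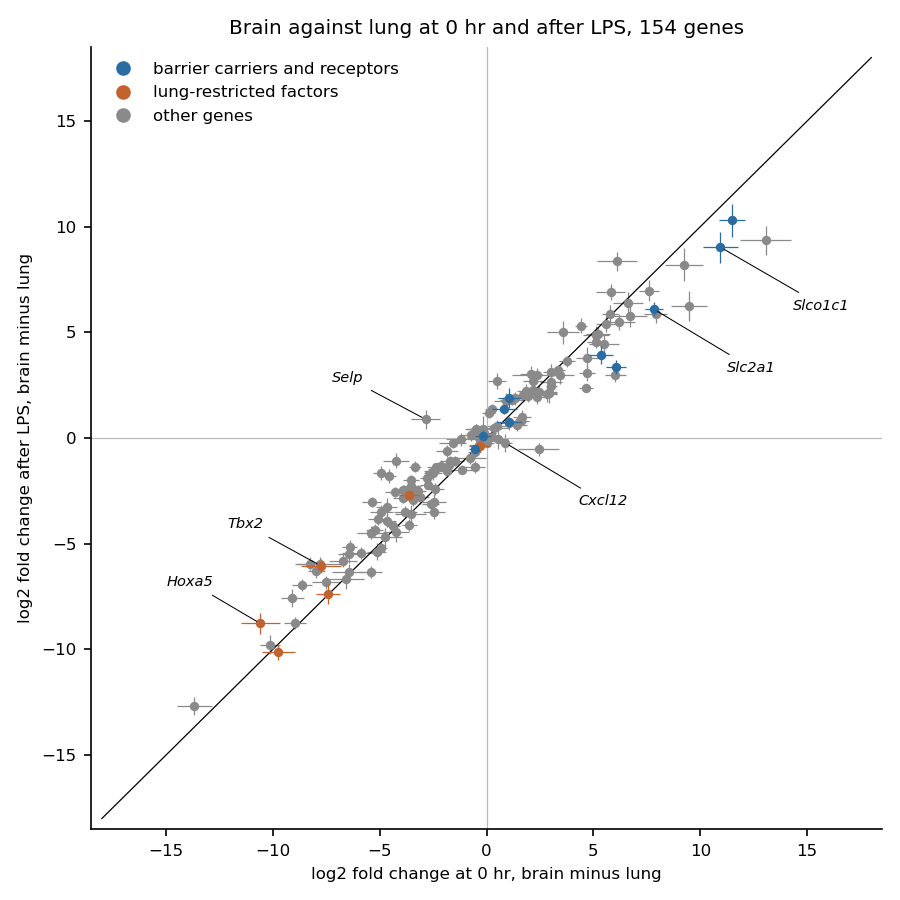
Log2 fold change (brain minus lung) of 154 genes named in the text at 0 hr (x axis) and over 5 time points after LPS (y axis), each point 1 gene, with bars of 1 SE. Most barrier carriers lie at the upper right and most lung-restricted factors at the lower left, and Selp and Cxcl12 are among the genes that change sign. Genes with under 10 counts in all brain or all lung libraries at 0 hr are not drawn.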

How the data were processed

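RNA on HA-tagged ribosomes was sequenced from poly-A libraries. The authors deposited raw read counts per gene, 1 file per sequencing run, and the submitters' processing notes name STAR 2.4.2, HTSeq 0.6.1 and mm10. Strand and annotation release are not given in the sources used here, and of 52550 gene rows 52403 matched GENCODE M21 by identifier. Runs of a library were summed, rows that name no gene were kept out, and brain replicate 6 (2.54% of reads on genes) and lung replicate 5 (2.22%) were left out. Chi-square tests of counts found no library deposited as 2 samples. Counts were filtered by filterByExpr, scaled by TMM and tested with edgeR 4.0.16 (R 4.3.3; two-sided quasi-likelihood test, tissue plus library series, the latter read from file name patterns), with Benjamini-Hochberg adjustment over all genes tested and a threshold of 0.05. Marker sums are sums of CPM. Lower bounds used 3 counts over a group and ratios exact intervals. limma 3.58.1, DESeq2 1.42.0, other scalings and filters, left-out libraries, blocks and single library series were tried as alternatives, and removal of 7 repeat features was added after seeing the data. Scripts were tested on simulated data with a dispersion of 0.1. There the test found 37 of 100 genes changed by a log2 fold change of 1 and 99 of 100 changed by 2, with 8 false among 144 calls. The simulated libraries held no outlier such as lung replicate 4. A gene not called may therefore still differ by 1 or more, and Abcb1b (2.43) and Igfbp7 (2.35) were not called at larger values. Members and gene lists were chosen with earlier results of these data known. Genes were named by a rule: the 10 largest called differences each way with a mean of at least 5 log2 CPM and no overlap, with and without other cell types' markers, and per list up to 4 members each way and members not called. Some genes that the rule picks are not reported here.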

Additional observations from a re-analysis of the deposited data

Results flagged for a closer look

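Levels of 32 genes and summed levels of 11 marker lists were looked at for a brain or lung library far from the rest of its group, 86 groups in all, and 2 groups held one. Chance alone would mark about 1 in 20 groups. Alpl stood at 6.19 log2 CPM in brain replicate 3, while the nearest other brain library was at 6.78 and the farthest at 6.98, so the gap was 0.744 of the range of the group, past Dixon's 95% critical value. Tnfrsf19 stood at 7.45 log2 CPM in brain replicate 2, with the nearest at 7.17 and the farthest at 7.07 (gap 0.739 of the range). Both levels were far above all lung libraries.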

How the results depend on the processing

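Libraries scaled to the pan-endothelial genes gave 11277 higher and 1157 lower calls at 0 hr and 2819 lower calls after LPS, and within library series 1, with fewer libraries, 2021 and 829. Leaving out 1 library gave 4818 to 6981 higher and 3619 to 5342 lower genes. The counts stayed within 1.5 times under DESeq2 size factors in edgeR (5694 and 4508), no low-count filter (7008 and 4477), no library series term (5237 and 3965), all 0 hr libraries (4731 and 2932), heart libraries in the fit (6721 and 4683), limma-voom (6795 and 4238) and DESeq2 (6407 and 4844). On the pan-endothelial scale Angpt2 (1.04), Cav2 (1.65), Cdh5 (0.026), Erg (1.25), Fzd4 (0.32), Insr (0.92, and 0.42 after LPS), Kitl (1.38), Lrp6 (1.35), Ppard (1.30), Slc9a3r2 (1.46) and Sox18 (0.92) turned positive, as did the medians of the angiopoietin and VEGF axis (0.44), caveolae (0.20), core endothelial factors (0.48), leukocyte adhesion molecules (0.56), pan-endothelial genes (0.12), vascular tone genes (0.69), ribosomal protein genes (1.26), interferon-stimulated genes (1.64), coagulation genes (1.02), immediate early genes (0.56), claudins (0.56), T-box genes (1.21), mural cell markers (0.98), lung fibroblast and smooth muscle markers (0.55) and lymphatic markers (1.00). This scaling moved the median of all genes from 0.40 to 2.02, so that values a little below 0 turned positive with that shift. The pan-endothelial list, which holds Cdh5, Erg and Sox18, sets this scale, so its median near 0 is given by the scaling and is no result. Why the pan-endothelial genes took a smaller share of the brain counts was not tested.

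Replicate numbers did not pair the libraries. The correlations of same-numbered brain and lung libraries' deviations from their group means were -0.13, -0.24, 0.14 and -0.18, and no lung library correlated best with the brain library of its own number. Libraries that share a mouse number in the file name had -0.17, 0.23 and 0.15, or 0.022, 0.065 and 0.052 with the means of each library series removed. Lung replicates 2 and 3 correlated best with the brain library of their mouse number. No label says whether such libraries came from the same mouse. With the replicate number as a block, 6073 genes were higher and 3533 lower, and with mouse tags read from file names as a block, 6148 and 3660. Lung depth, with 3666859 counts in the shallowest library, limits what can be said of genes near 0 there.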

Other observations

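Among gene families read as whole classes, solute carriers had 151 genes higher in brain and 45 lower of 288 tested, with a median log2 fold change of 1.20 (2.76 on the pan-endothelial scale). Slc6a11, a GABA carrier of astrocytes, had 12.64 ± 0.61, and Slc6a2, the noradrenaline carrier that lung ECs use to clear the transmitter from blood, read -0.57, -1.89, -0.059, 0.55 and 0.32 log2 CPM in brain and 7.30, 9.11, 8.54 and 8.97 in lung. Every lung library was above every brain library for Slc6a2, with a log2 fold change of -9.08 ± 0.55 (edgeR, adjusted p = 9.8e-07). Potassium channel genes were 63 higher and 6 lower of 81, with a median of 5.04 (6.73), or 4.73 with genes at 0 counts in lung set to their bound. Of the 81 genes, 32 had under 10 counts in each library of the lower group and entered the test through the other group, as did 44 of the solute carriers. Kcnj10, a channel of glial cells, had 12.42 ± 0.60, while Kcnj15, Kcne3, Kcnk6 and Kcnn4 led toward lung, with Kcne3 at -3.56 ± 0.71 and Kcnn4, a channel of endothelium and blood cells, at -2.48 ± 0.52.

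Guidance genes (semaphorins, ephrins, netrins and slits) were 28 higher and 19 lower of 67 (41.8% and 28.4%), against 34.3% and 24.9% among all genes. Their median was 0.12 (1.73), or 0.091 to 0.28 when 1 library was left out. Sema3g, a semaphorin of arterial ECs, stood at 6.18, 6.86, 5.92, 6.48 and 6.70 log2 CPM in brain and 10.23, 11.39, 11.65 and 10.90 in lung. The groups did not overlap, and the log2 fold change was -4.65 ± 0.40 (adjusted p = 8.4e-06). Collagen IV chains went in both directions, with Col4a3 (-2.47 ± 0.57) and Col4a4 (-5.41 ± 0.65), which form the alveolar basement membrane, lower in brain and Col4a6 (3.59 ± 0.75) higher. Of laminin and basement membrane genes, 8 were higher and 8 lower of 21, among them Lama2 (2.93 ± 0.30), a laminin of astrocytes and mural cells, and Lama5 (-2.61 ± 0.39), a laminin of ECs and epithelium. Of cholesterol genes, 9 were higher and 4 lower of 20, with Apoe, which glia secrete, at 5.13 ± 0.44. Glycocalyx genes were 7 higher and 8 lower of 22 (31.8% and 36.4%). Cytochrome P450 genes had 13 higher and 9 lower of 31 (41.9% and 29.0%), with Cyp1b1, an enzyme of brain vessels and mural cells, at 6.20 ± 0.72 and Cyp1a1 at -10.09 ± 0.66.

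Of the remaining marker lists of other cells, microglia markers were 7 higher and 2 lower of 14, choroid plexus and ependymal markers 9 and 3 of 14, lung fibroblast and smooth muscle markers 2 and 7 of 14, T and NK cell markers 0 and 9 of 12, neutrophil markers 0 and 6 of 10, platelet and red cell markers 0 and 5 of 7 and cardiac muscle markers 1 and 9 of 15. The claudin family had 4 and 6 of 12, collagens 18 and 7 of 39, carbonic anhydrases 8 and 2 of 14 and all ABC transporters 13 and 8 of 40. Among all genes tested, 34.3% were higher and 24.9% lower. Of the T and NK cell markers, 6 had under 10 counts in each library of the lower group, as did 4 of the cardiac muscle markers.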
